A study of Homo sapiens with 36 samples.

Results

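The Wnt pathway genes described here were 10 of the 18417 genes with a transcript cluster of their own on the arrays: the receptors ROR1 and LRP6, the R-spondin module of RSPO3, LGR4 and RNF43, the ligand WNT5A, the secreted inhibitors DKK1 and SFRP1, the feedback gene AXIN2 and the nuclear factor TCF7L2. They were chosen by name. The rule held 1 measured value, the mean level over the 36 arrays, meant to pick between several clusters of a gene, and since each of the 10 genes had a single cluster, it picked nothing. RNA of A549 cells, a line from a human lung carcinoma with features of the alveolar epithelium, had been hybridised to Human Gene 1.0 ST arrays after 1, 3 and 5 weeks in medium with cigarette smoke extract (CSE) at 1%, 5% or 10%, renewed daily, or without it. Each of the 12 groups (control, CSE 1%, CSE 5% and CSE 10% at each week) had 3 arrays, described as independent experiments. All groups were of the same single cell line, kept in low serum and sub-cultured weekly, so no gene was altered and no cell type other than the line was present by design.

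In canonical signalling, a Wnt protein joins a Frizzled receptor to its co-receptor LRP6, the complex that destroys β-catenin is held back, and β-catenin reaches the nucleus, where it acts on genes through factors such as TCF7L2. The pathway limits itself at several levels. DKK1 binds LRP6 and SFRP1 binds Wnt proteins outside the cell, RNF43 removes Frizzled receptors from the surface, and AXIN2 rebuilds the destruction complex. R-spondins such as RSPO3 bind LGR4 and draw RNF43 away, which leaves more receptor at the surface, while ROR1 is a receptor of WNT5A in β-catenin-independent signalling. In the lung, Wnt signals shape the embryonic airways and maintain alveolar type II cells.

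Values are log2 intensities after RMA, the normalization the authors used, and a difference of 1 is a 2-fold change. The number of arrays limits the precision. A change was called where the Benjamini-Hochberg adjusted p of limma over all 33297 transcript clusters was under 0.05. Because the 10 genes were chosen with earlier results of these arrays known, each p places a gene in the fit of all clusters and is no independent support. RNA of a whole culture was measured, so fewer cells that express a gene and less RNA per cell cannot be told apart. The 8 epithelial and A549 markers all lay above the median cluster (6.79), with means of 9.15 for KRT19 to 13.4 for KRT8, whereas 2 of 8 alveolar type II, 1 of 8 fibroblast, 1 of 5 leukocyte and none of 5 endothelial markers did so.

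The 3 control arrays of 5 weeks need separate mention. Their titles give 5 weeks, but the descriptions of all 3 give 3 weeks. They also stood apart from the other 33 arrays: the SD of their values was 2.15 to 2.21, against 2.25 to 2.31 in the others, and the leading principal component (38.8% of the variance) placed them at -111 to -74.6 and the others at -61.2 to 47.1. The 5-week changes are therefore given against these 3 arrays and also against the 6 control arrays of weeks 1 and 3, called the earlier controls. The median of all clusters was itself shifted, to -0.14, -0.17 and -0.17 at CSE 1%, 5% and 10% relative to the 5-week controls.

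Promoter sequences are shown for ROR1 and DKK1, since these were the genes with the clearest changes in opposite directions at CSE 10%. Each run is the 250 bases before the annotated start (RefSeq, GRCh38.p14), 5′ to 3′ on the gene's strand. ROR1 lies at chr1:63773767-63774016 and DKK1 at chr10:52314031-52314280, both on the plus strand. In ROR1 the capitals mark GCGTG, the core at which the aryl hydrocarbon receptor, the sensor of polycyclic hydrocarbons in smoke, binds DNA. In DKK1 they mark CTTTGA or its reverse complement TCAAAG, a core bound by TCF and LEF factors.
ROR1: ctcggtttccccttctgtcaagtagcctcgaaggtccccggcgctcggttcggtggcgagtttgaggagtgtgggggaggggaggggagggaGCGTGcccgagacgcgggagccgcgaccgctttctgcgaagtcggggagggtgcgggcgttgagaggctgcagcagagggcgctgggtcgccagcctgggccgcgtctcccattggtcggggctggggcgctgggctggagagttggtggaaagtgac
DKK1: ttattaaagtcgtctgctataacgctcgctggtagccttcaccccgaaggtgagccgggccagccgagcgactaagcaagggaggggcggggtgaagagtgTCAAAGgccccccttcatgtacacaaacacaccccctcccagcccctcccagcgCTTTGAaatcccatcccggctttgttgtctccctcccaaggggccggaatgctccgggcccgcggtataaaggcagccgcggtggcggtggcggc
The DKK1 promoter held the TCF/LEF core 2 times, starting 149 and 95 bases before the start, and the ROR1 promoter held the other core once, starting 158 bases before it. Both motifs were searched on both strands, and the ROR1 promoter held no TCF/LEF core and the DKK1 promoter no GCGTG core. Of the 10 genes, 7 were matched to 11 promoters (LRP6 and AXIN2 had no entry, and SFRP1 was left out by choice). The TCF/LEF core was found in 1 of these promoters, that of DKK1, and the GCGTG core in 4, of ROR1, LGR4, RNF43 and WNT5A. Over all 35116 promoters of the same length, 11.2% held CTTTGA and 32.2% held GCGTG on either strand. These matches describe letters only.

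ROR1 had the largest change of the 10 genes at CSE 5% and 10% in every week, and its mean level was ordered by concentration in every week. At 1 week its control arrays read 7.34, 7.37 and 7.52, and the arrays of CSE 1% read 7.85, 7.52 and 7.77, of CSE 5% 8.86, 8.84 and 8.80, and of CSE 10% 9.05, 9.01 and 9.10. At 3 weeks they read 7.44, 7.25 and 7.44 in control cells, 8.35, 8.28 and 8.02 at CSE 1%, 9.37, 9.28 and 9.32 at CSE 5%, and 9.60, 9.56 and 9.36 at CSE 10%. At 5 weeks they read 7.42, 7.07 and 7.22 in control cells, 8.16, 8.31 and 8.29 at CSE 1%, 9.69, 9.58 and 9.52 at CSE 5%, and 9.59, 9.76 and 9.75 at CSE 10%. The 9 control arrays stayed between 7.07 and 7.52, and every array of CSE 5% or 10% lay above every control array of its week; CSE 1% overlapped control at 1 week and lay above it later.

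For CSE 5%, the log2 change of ROR1 against control was 1.42 at 1 week (2.68-fold), 1.94 at 3 weeks (3.85-fold) and 2.36 at 5 weeks (5.13-fold), each with a standard error of 0.097. For CSE 10% the changes in order of weeks were 1.65, 2.13 and 2.46, the last a 5.51-fold change, and the highest adjusted p of these 6 changes was 7.2e-12. For CSE 1% the change was 0.30 at 1 week (adjusted p = 0.066), and 0.84 and 1.02 at 3 and 5 weeks (adjusted p = 3.3e-07 and 5.2e-09). The first passed without CSE 1% 1 week replicate 2 (0.40, adjusted p = 0.021) or with array weights (0.35, adjusted p = 0.0024). It also passed with all 9 control arrays as 1 group (0.37, adjusted p = 0.0068) or a filter on low values (adjusted p = 0.042). With the earlier controls, the 5-week changes were 0.86, 2.20 and 2.31 for CSE 1%, 5% and 10%, close to those above. The difference between control cells of 5 and 3 weeks, -0.14 (95% interval -0.34 to 0.057), did not pass the test (adjusted p = 0.22).

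**Figure D1:**
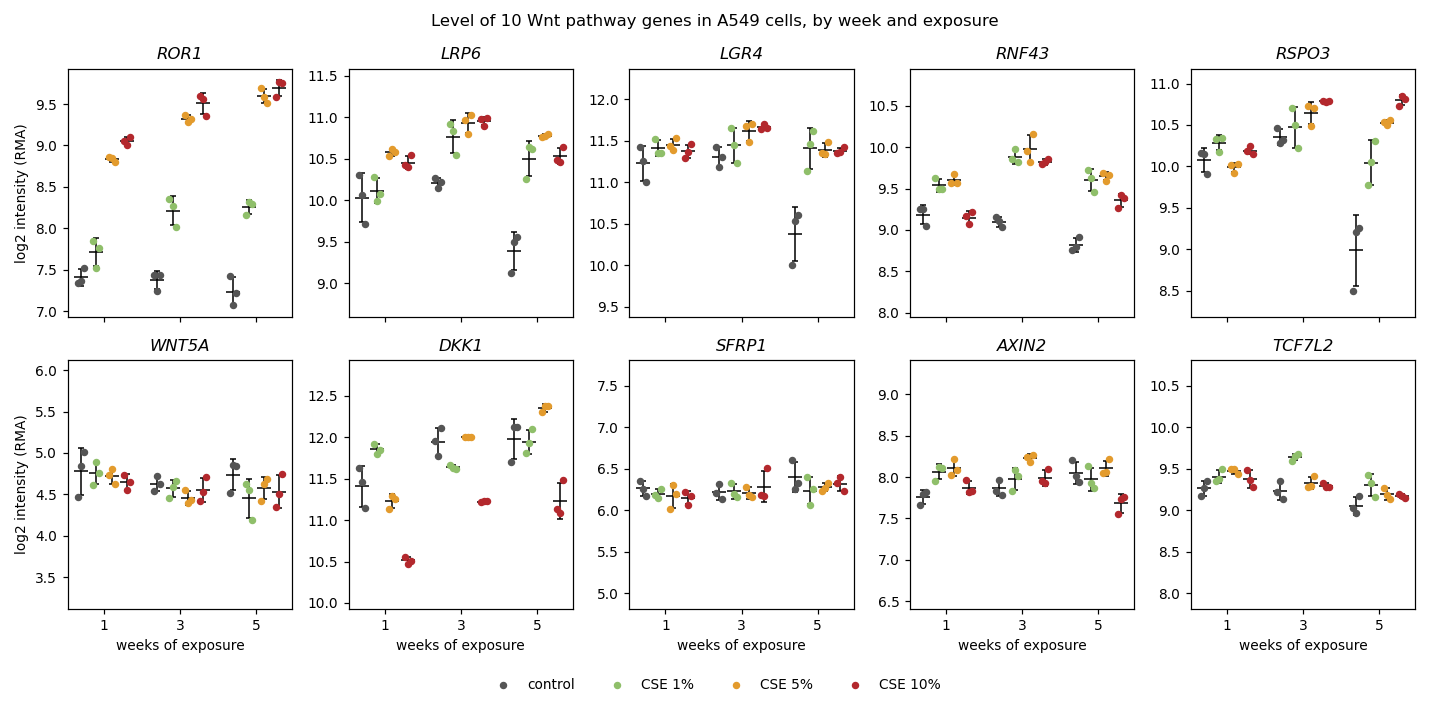
Log2 intensity (vertical axis, 3 log2 units high in every panel) of the 10 genes by weeks of exposure, with control cells in grey and CSE 1%, 5% and 10% in green, orange and red. Each point is an array (3 per group), and black bars give the mean ± SD. ROR1 forms a staircase at every week, with control arrays between 7.07 and 7.52 and CSE 10% arrays between 9.01 and 9.76. In LGR4 and RSPO3 the control arrays of 5 weeks form the lowest group.

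Between concentrations, ROR1 was higher at CSE 5% than at CSE 1% in each week, by 1.12, 1.11 and 1.34 in the order of weeks (adjusted p = 1.3e-09, 7.0e-09 and 1.5e-10), where 6.73%, 5.51% and 3.54% of all clusters passed. Between CSE 10% and 5% the differences were smaller and did not pass the test: 0.22 at 1 week (95% interval 0.023 to 0.42), 0.19 at 3 weeks (-0.013 to 0.38) and 0.10 at 5 weeks (-0.095 to 0.30). Most of the range was thus covered between CSE 1% and 5%. The CSE 5% effect on ROR1 was larger at 3 weeks than at 1 week by 0.52 (SE 0.14, adjusted p = 0.030, where 3.23% of all clusters passed and RNF43 was the other of the 10 genes), a call lost on leaving out any of 7 of the 12 arrays involved (adjusted p 0.055 to 0.11). It was larger at 5 weeks than at 1 week by 0.94 (adjusted p = 2.1e-05, where 6 of the 10 genes and 30.7% of all clusters passed), and by 0.78 with the earlier controls (adjusted p = 9.8e-06).

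LRP6, the co-receptor of canonical signalling, rose to a smaller extent. At 1 week its arrays read 10.30, 10.07 and 9.72 in control cells, 10.28, 9.99 and 10.08 at CSE 1%, 10.54, 10.62 and 10.58 at CSE 5%, and 10.43, 10.40 and 10.54 at CSE 10%. At 3 weeks they read 10.27, 10.14 and 10.22 in control cells, 10.92, 10.84 and 10.54 at CSE 1%, 10.97, 10.80 and 11.03 at CSE 5%, and 10.98, 10.90 and 10.99 at CSE 10%. At 5 weeks they read 9.13, 9.49 and 9.55 in control cells, 10.25, 10.64 and 10.61 at CSE 1%, 10.76, 10.77 and 10.80 at CSE 5%, and 10.49, 10.47 and 10.65 at CSE 10%. Exposed cells thus lay above control cells in every week except at CSE 1% in the first, and the 5-week controls were the lowest group.

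In the first week the log2 change of LRP6 was 0.09, 0.55 and 0.43 at CSE 1%, 5% and 10% (SE 0.12). After 3 weeks it was 0.56, 0.72 and 0.75, and after 5 weeks 1.11, 1.39 and 1.14. All but the first (adjusted p = 0.77) passed the test. The 5-week controls were lower than the 3-week controls by 0.82 (log2 change -0.82, adjusted p = 9.0e-06), and with the earlier controls the 5-week changes were 0.38, 0.66 and 0.41 (adjusted p = 0.014, 2.8e-05 and 0.0040), with CSE 1% arrays overlapping the controls. The 1-week changes rested on single arrays: without Ctrl 1 week replicate 3, the control array at 9.72, the change at CSE 5% was 0.39 (adjusted p = 0.052) and at CSE 10% 0.27 (adjusted p = 0.19), and without CSE 10% 1 week replicate 3 the change at CSE 10% was 0.38 (adjusted p = 0.077). The CSE 1% change with the earlier controls was likewise lost without CSE 1% 5 weeks replicate 2 (0.31, adjusted p = 0.11) or replicate 3 (0.33, adjusted p = 0.093). CSE 5% exceeded CSE 1% at 1 week by 0.46 (adjusted p = 0.018), a call lost without any of 4 of the 6 arrays (adjusted p 0.052 to 0.12).

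Of the R-spondin module, RNF43, the ubiquitin ligase that clears Frizzled, was the gene with changes in all 3 weeks. At 1 week its arrays read 9.26, 9.25 and 9.05 in control cells, 9.62, 9.50 and 9.49 at CSE 1%, 9.56, 9.67 and 9.57 at CSE 5%, and 9.16, 9.07 and 9.22 at CSE 10%. At 3 weeks they read 9.15, 9.11 and 9.03 in control cells, 9.86, 9.98 and 9.82 at CSE 1%, 9.96, 9.82 and 10.16 at CSE 5%, and 9.79, 9.82 and 9.86 at CSE 10%. At 5 weeks they read 8.75, 8.79 and 8.92 in control cells, 9.73, 9.63 and 9.46 at CSE 1%, 9.69, 9.60 and 9.66 at CSE 5%, and 9.27, 9.42 and 9.38 at CSE 10%. Unlike in ROR1, the highest concentration did not give the highest level, and at 1 week it overlapped control.

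The log2 change of RNF43 at CSE 1%, 5% and 10% was 0.35, 0.41 and -0.04 in the first week, 0.79, 0.88 and 0.73 in the third, and 0.78, 0.83 and 0.54 after 5 weeks (SE 0.082). All but CSE 10% at 1 week (adjusted p = 0.84) passed the test. With the earlier controls, the 5-week changes were 0.46, 0.51 and 0.22 (adjusted p = 2.0e-05, 2.4e-06 and 0.020). Single arrays decided the smallest of these: CSE 1% at 1 week was lost without CSE 1% 1 week replicate 1 (0.31, adjusted p = 0.059) or Ctrl 1 week replicate 3 (0.28, adjusted p = 0.074), and CSE 10% at 5 weeks against the earlier controls was lost without Ctrl 1 week replicate 3 (0.18, adjusted p = 0.056), CSE 10% 5 weeks replicate 2 (0.18, adjusted p = 0.10) or replicate 3 (0.20, adjusted p = 0.076). CSE 10% was lower than CSE 5% at 1 week, by 0.45 (log2 change -0.45, adjusted p = 0.00089), with no overlap of arrays. After 3 and 5 weeks that difference was -0.16 (adjusted p = 0.45) and -0.29 (adjusted p = 0.057). The CSE 5% effect on RNF43 was larger at 3 weeks than at 1 week by 0.47 (SE 0.12, adjusted p = 0.020), which was lost on leaving out any of 4 arrays (adjusted p 0.058 to 0.087).

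RSPO3, the secreted R-spondin, and LGR4, its receptor, passed the test before 5 weeks only at CSE 10% at 3 weeks. Their 5-week changes were smaller with the earlier controls, and the cause of the low control level at 5 weeks was not tested. LRP6 and RNF43 also changed less at 5 weeks with the earlier controls, but both passed at all 3 concentrations at 3 weeks. RSPO3 read 10.17, 10.15 and 9.91 in control cells at 1 week and 10.47, 10.29 and 10.32 at 3 weeks, but 8.499, 9.21 and 9.26 at 5 weeks. At 5 weeks the exposed cells read 9.78, 10.05 and 10.31 at CSE 1%, 10.53, 10.50 and 10.56 at CSE 5%, and 10.73, 10.85 and 10.82 at CSE 10%, all above the controls of that week. The 5-week control level was lower than that of 3 weeks by 1.37 (log2 change -1.37, adjusted p = 7.6e-08), the largest difference between control weeks among the 10 genes.

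Against the 5-week controls, RSPO3 rose by 1.06, 1.54 and 1.81 at CSE 1%, 5% and 10% (SE 0.14; adjusted p = 1.5e-06, 9.0e-10 and 3.5e-11). The same arrays gave, with the earlier controls, -0.17 at CSE 1% (adjusted p = 0.41), 0.31 at CSE 5% (adjusted p = 0.059) and 0.58 at CSE 10% (adjusted p = 5.0e-04). The direction at CSE 1% therefore depended on which controls were used. CSE 10% was the concentration at which RSPO3 passed the test against both. At CSE 5% all arrays also lay above the earlier controls. That change passed after cyclic loess (0.31, adjusted p = 0.037) or a further quantile normalization (0.32, adjusted p = 0.038). It also passed after centring on housekeeping genes (0.40, adjusted p = 0.016) and with array weights (0.28, adjusted p = 0.0075). At 3 weeks CSE 10% arrays read 10.79, 10.77 and 10.79, a change of 0.43 (adjusted p = 0.024) that was lost without any of 5 of the 6 arrays (0.39 to 0.43, adjusted p 0.054 to 0.089). At 1 week the changes were 0.21, -0.09 and 0.12, none past the test.

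In control cells LGR4 read 11.43, 11.25 and 11.01 in the first week, 11.43, 11.18 and 11.30 in the third, but 10.00, 10.53 and 10.60 after 5 weeks. Over the 27 arrays of exposed cells it stayed between 11.14 and 11.70. The 5-week controls were thus the only group with all arrays below this range, lower than those of 3 weeks by 0.93 (log2 change -0.93, adjusted p = 3.6e-06).

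Against the 5-week controls, LGR4 rose by 1.03, 1.01 and 1.00 at CSE 1%, 5% and 10% (SE 0.13, highest adjusted p = 6.5e-07), nearly the same at each concentration. Relative to the earlier controls the changes were 0.14 (95% interval -0.089 to 0.37), 0.12 (-0.11 to 0.35) and 0.12 (-0.11 to 0.34), and none passed the test (adjusted p = 0.47, 0.46 and 0.47). In the earlier weeks a single comparison passed, CSE 10% at 3 weeks, with arrays at 11.65, 11.70 and 11.65, a change of 0.36 (adjusted p = 0.037). It was lost without any of 5 of the 6 arrays (0.30 to 0.37, adjusted p 0.069 to 0.16). At CSE 5% at 3 weeks the change of LGR4 was 0.32 (adjusted p = 0.086). That change passed after a further quantile normalization (0.37, adjusted p = 0.038), centring on housekeeping genes (0.48, adjusted p = 0.0084) or with array weights (0.32, adjusted p = 0.0099).

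**Figure D2:**
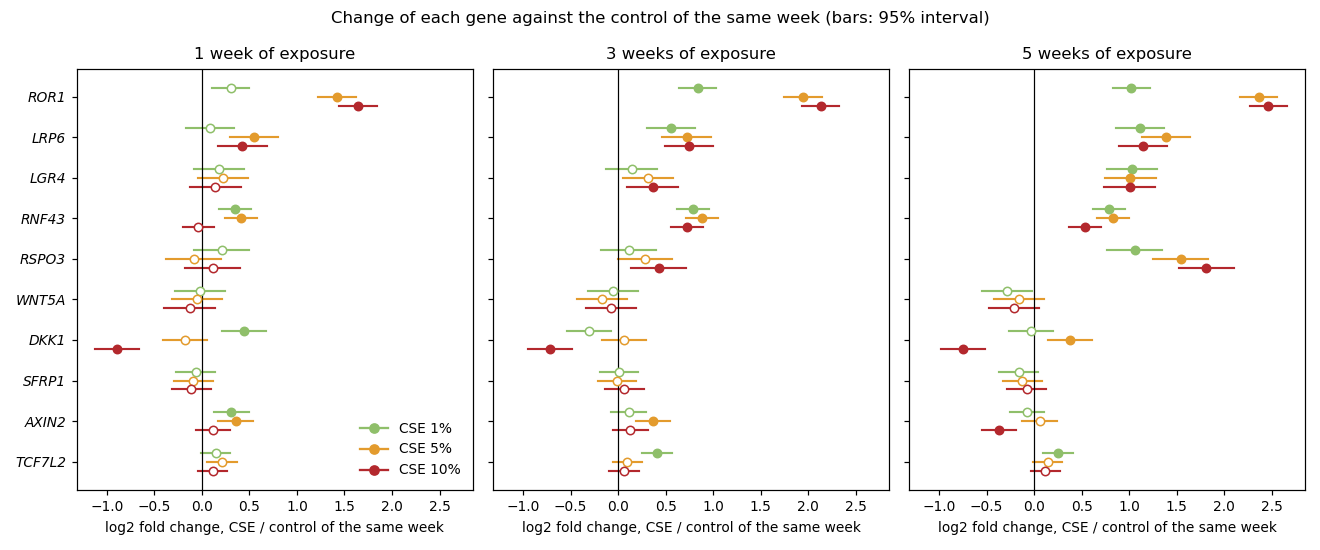
Log2 fold change (horizontal axis) of each gene, CSE over the control of the same week, in 3 panels for 1, 3 and 5 weeks, with CSE 1%, 5% and 10% in green, orange and red. Points are fitted changes, bars their 95% intervals, and filled points have an adjusted p under 0.05. ROR1 lies farthest right, at 2.46 for CSE 10% at 5 weeks, and the red DKK1 points lie left of 0 in all panels, at -0.89, -0.72 and -0.75.

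DKK1, the secreted antagonist of LRP6, was the gene that fell in the cells with the highest concentration in every week. At 1 week its arrays read 11.63, 11.46 and 11.14 in control cells, 11.92, 11.80 and 11.85 at CSE 1%, 11.13, 11.29 and 11.25 at CSE 5%, and 10.56, 10.48 and 10.50 at CSE 10%. At 3 weeks they read 11.95, 11.77 and 12.11 in control cells, 11.67, 11.63 and 11.62 at CSE 1%, 11.998, 12.007 and 11.998 at CSE 5%, and 11.21, 11.23 and 11.23 at CSE 10%. At 5 weeks they read 11.70, 12.12 and 12.12 in control cells, 11.81, 11.93 and 12.10 at CSE 1%, 12.30, 12.38 and 12.38 at CSE 5%, and 11.13, 11.08 and 11.48 at CSE 10%. All 3 arrays of CSE 10% lay below all control arrays of the same week, and the other concentrations took no fixed order.

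Against control, DKK1 fell by 0.89 at 1 week, by 0.72 at 3 weeks and by 0.75 at 5 weeks at CSE 10% (SE 0.11; adjusted p = 7.1e-07, 1.5e-05 and 3.3e-06), which are 1.86-, 1.65- and 1.68-fold lower levels. The 5-week change was -0.44 with the earlier controls (adjusted p = 0.00087), with arrays overlapping. Comparisons between concentrations use no control array, and there CSE 10% was lower than CSE 5% by 0.71, 0.78 and 1.12 at 1, 3 and 5 weeks (log2 changes -0.71, -0.78 and -1.12; adjusted p = 0.00016, 0.00021 and 1.3e-07). No array overlapped between the 2 concentrations in any week. DKK1 was the gene of the 10 that passed the test between CSE 10% and 5% in all 3 weeks, where 3.27%, 0.967% and 2.22% of all clusters passed.

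Relative to same-week control, DKK1 changed less at the lower concentrations and in both directions. With the earlier controls this did not hold for the size of the change at CSE 5%. At CSE 1% it was higher at 1 week by 0.45 (adjusted p = 0.015), a call lost without Ctrl 1 week replicate 3 (0.31, adjusted p = 0.15), CSE 1% 1 week replicate 1 (0.42, adjusted p = 0.072) or replicate 3 (0.45, adjusted p = 0.052). At 3 weeks its change was -0.30 (adjusted p = 0.085), which passed without Ctrl 3 weeks replicate 2 (-0.39, adjusted p = 0.047). At 5 weeks it was -0.03 (adjusted p = 0.81) with the controls of that week and 0.27 (adjusted p = 0.061) with the earlier ones, and the second passed after each of 3 other scalings (0.28 to 0.37, adjusted p 0.0067 to 0.034). At CSE 5% it was higher at 5 weeks by 0.37 (adjusted p = 0.0057). This change was 0.68 with the earlier controls (adjusted p = 4.2e-06), and without Ctrl 5 weeks replicate 1 it was 0.23 (adjusted p = 0.084).

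The control level of DKK1 itself moved: it was higher at 3 weeks than at 1 week by 0.54 (adjusted p = 0.0017), the one call among the 10 genes between these controls, where 11.5% of all clusters passed. CSE 5% was below CSE 1% at 1 week by 0.63 (log2 change -0.63, adjusted p = 3.0e-04) and above it at 5 weeks by 0.41 (adjusted p = 0.038), a call lost without any of 5 of the 6 arrays (adjusted p 0.088 to 0.24). The CSE 5% effect on DKK1 was higher at 5 weeks than at 1 week by 0.55 (SE 0.16, adjusted p = 0.011), and by 0.86 with the earlier controls (adjusted p = 2.4e-05). The first of these was lost without Ctrl 1 week replicate 1 (0.44, adjusted p = 0.050) or Ctrl 5 weeks replicate 1 (0.41, adjusted p = 0.052).

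SFRP1, which binds Wnt proteins, and WNT5A, a ligand of ROR1, passed the test in no comparison. The 36 arrays of SFRP1 lay between 6.02 and 6.61, and the changes against control lay between -0.16 and 0.07. Those of WNT5A lay between 4.19 and 5.02, and the changes lay between -0.28 and -0.02. The widest 95% intervals reached -0.37 and 0.27 for SFRP1 and -0.55 and 0.24 for WNT5A. Both clusters were dim: the mean of WNT5A lay above 16.7% and that of SFRP1 above 40.9% of all cluster means, while the other 8 genes lay above 68.4% to 97.1%. Signals of different clusters are not comparable amounts of RNA, so this gives their place on the array and no ratio between genes. For CSE 1% at 5 weeks, the change of WNT5A (-0.28, adjusted p = 0.063) passed without Ctrl 5 weeks replicate 1 (-0.39, adjusted p = 0.027) or without CSE 1% 5 weeks replicate 1 (-0.37, adjusted p = 0.031), and with the earlier controls it was -0.25 (adjusted p = 0.14).

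AXIN2, scaffold of the destruction complex and a feedback target of β-catenin, changed little. At 1 week its arrays read 7.66, 7.79 and 7.82 in control cells, 7.96, 8.13 and 8.11 at CSE 1%, 8.02, 8.22 and 8.09 at CSE 5%, and 7.96, 7.82 and 7.84 at CSE 10%. At 3 weeks they read 7.84, 7.96 and 7.79 in control cells, 7.83, 8.08 and 8.01 at CSE 1%, 8.25, 8.18 and 8.26 at CSE 5%, and 7.95, 7.92 and 8.10 at CSE 10%. At 5 weeks they read 8.20, 8.01 and 7.94 in control cells, 8.13, 7.93 and 7.86 at CSE 1%, 8.05, 8.06 and 8.21 at CSE 5%, and 7.55, 7.73 and 7.76 at CSE 10%. The highest group mean was that of CSE 5% at 3 weeks and the lowest that of CSE 10% at 5 weeks.

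AXIN2 was higher than in control cells at CSE 1% and 5% at 1 week, by 0.31 and 0.35 (SE 0.089; adjusted p = 0.036 and 0.0072), and at CSE 5% at 3 weeks, by 0.37 (adjusted p = 0.0031). The first was lost without any of 5 of the 6 arrays (0.26 to 0.34, adjusted p 0.051 to 0.15), and the second without CSE 5% 1 week replicate 2 (0.30, adjusted p = 0.057). At 5 weeks AXIN2 was lower at CSE 10% by 0.37 (log2 change -0.37, adjusted p = 0.00086), and with the earlier controls the change was not past the test (-0.13, adjusted p = 0.22). CSE 10% was also lower than CSE 5% at 5 weeks, by 0.43 (-0.43, adjusted p = 0.0050; -0.36 with adjusted p = 0.071 without CSE 10% 5 weeks replicate 1). At CSE 5% the 5-week change was 0.06 (adjusted p = 0.59) with the 5-week controls and 0.30 (adjusted p = 0.0044) with the earlier ones.

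TCF7L2, the DNA-binding partner of β-catenin, was called against control at CSE 1% only, and other settings gave more calls. At CSE 5% at 1 week its change was 0.21 (adjusted p = 0.069), with all arrays above control. That change passed with array weights (0.22, adjusted p = 0.0085) or a filter on low values (adjusted p = 0.044). After centring on housekeeping genes, CSE 5% and 10% passed at 3 weeks (0.26 and 0.25, adjusted p = 0.013 and 0.012). At 3 weeks its arrays read 9.60, 9.66 and 9.68 at CSE 1%, against 9.22, 9.35 and 9.13 in control cells, a rise of 0.41 (SE 0.075, adjusted p = 0.00029). There CSE 5% was below CSE 1% by 0.31 (log2 change -0.31, adjusted p = 0.0095; -0.29 with adjusted p = 0.052 without CSE 5% 3 weeks replicate 1). At 5 weeks CSE 1% was above control by 0.25 (adjusted p = 0.0070), with overlapping arrays, while with the earlier controls the change was 0.06 (adjusted p = 0.63). The 5-week call at CSE 1% was also lost after cyclic loess (0.11, adjusted p = 0.20), after a further quantile normalization (0.12, adjusted p = 0.22), and with that week or that comparison fitted alone (adjusted p = 0.051 and 0.15). At CSE 5% the 5-week change was 0.14 (adjusted p = 0.10), or 0.20 (adjusted p = 0.032) without Ctrl 5 weeks replicate 3, and at CSE 10% it was 0.12 (adjusted p = 0.18). With the earlier controls both had the other sign, -0.05 (adjusted p = 0.62) and -0.08 (adjusted p = 0.40). Between control cells of 5 and 3 weeks TCF7L2 was at the threshold (-0.18, adjusted p = 0.049), a call lost without any of 4 of the 6 arrays (adjusted p 0.082 to 0.23).

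Counted over the 10 genes, 3, 4 and 3 passed the test at CSE 1%, 5% and 10% at 1 week, where 5.31%, 10.8% and 16.7% of all clusters passed. At 3 weeks 4, 4 and 6 passed, where 11.5%, 19.6% and 26.5% of all clusters passed. At 5 weeks 6, 6 and 7 passed, against 53.7%, 63.3% and 61.5% of all clusters, so that the counts were close to the background. With the earlier controls, 3, 5 and 5 of the 10 genes passed at 5 weeks, against 15.3%, 26.1% and 31% of all clusters. Between control cells of 5 and 3 weeks 5 of the 10 genes (LRP6, LGR4, RNF43, RSPO3 and TCF7L2) were called, all lower at 5 weeks, against 53.5% of all clusters. Of these, RNF43 (-0.28) was no longer called after cyclic loess (-0.12, adjusted p = 0.19), a further quantile normalization (-0.10, adjusted p = 0.30) or centring on housekeeping genes (-0.14, adjusted p = 0.17), nor was TCF7L2 (adjusted p 0.66 to 0.97), while AXIN2 (0.19, adjusted p = 0.074) was then called higher (0.24 to 0.33, adjusted p 0.0049 to 0.018). SFRP1 (0.18, adjusted p = 0.12) was called higher after the housekeeping centring alone (0.32, adjusted p = 0.017). The medians of the 10 log2 changes in the 9 comparisons with same-week control lay between 0.12 and 0.60, while those of all clusters lay between -0.17 and 0.01.

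By the criterion of the study, a log2 change beyond 1 with B (the log odds of a change) above 0, ROR1 passed at CSE 5% and 10% at 1 and 3 weeks, where 0.895%, 1.52%, 1.74% and 2.5% of all clusters did. At CSE 1% none of the 10 passed in these weeks, against 0.324% and 0.748% of all clusters. At 5 weeks ROR1, LRP6, LGR4 and RSPO3 passed at all 3 concentrations, against 4.02%, 9.15% and 9.08% of all clusters. With the earlier controls, ROR1 alone of the 10 genes passed at 5 weeks, at CSE 5% and 10%, where 1.93% and 2.08% of all clusters did, and none passed at CSE 1%, against 0.811%.

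**Figure D3:**
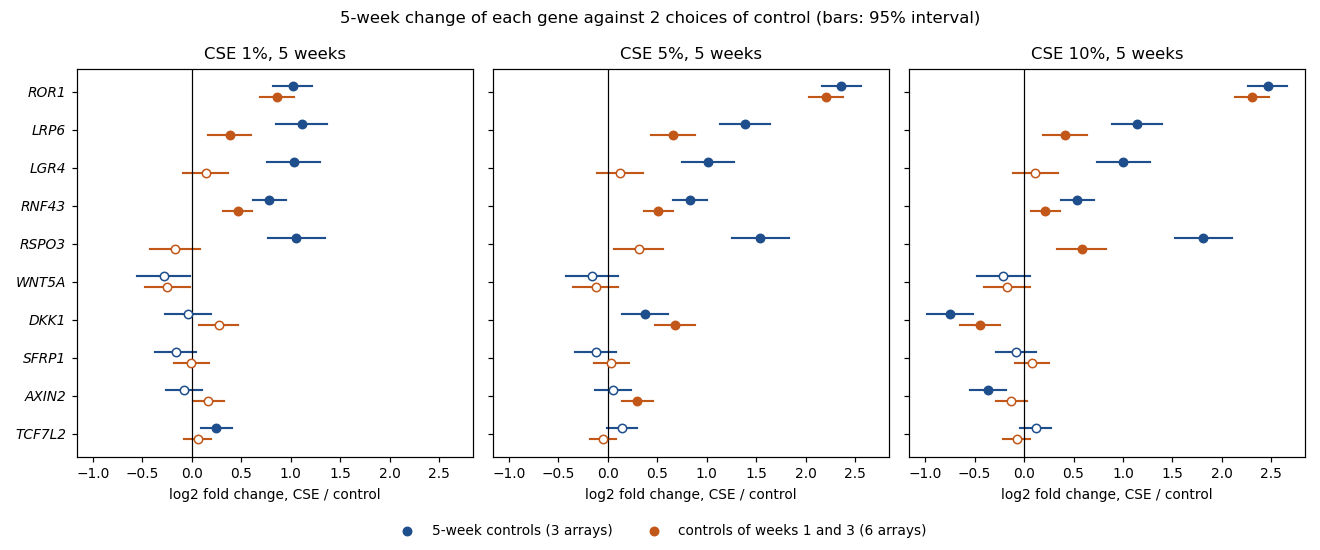
Log2 fold change (horizontal axis) of each gene at 5 weeks, CSE over control, with a panel per concentration, relative to the 3 control arrays of 5 weeks (blue) or the 6 of weeks 1 and 3 (orange). Bars are 95% intervals, and filled points have an adjusted p under 0.05. For ROR1 the 2 colours nearly coincide (2.46 and 2.31 at CSE 10%), for LGR4 (1.00 and 0.12) and RSPO3 (1.81 and 0.58) they lie far apart, and at CSE 5% the order is turned in DKK1 (0.37 and 0.68).

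Other genes of the pathway were read from lists by role, 92 of 96 of them measured. At 1 week 8, 14 and 15 of the 92 were higher and 2, 4 and 8 lower at CSE 1%, 5% and 10%, and at 3 weeks 9, 15 and 18 were higher and 3, 11 and 10 lower. In percent of the 92, the calls were 10.9%, 19.6% and 25.0% at 1 week, where 5.31%, 10.8% and 16.7% of all clusters were called, and 13.04%, 28.3% and 30.4% at 3 weeks, against 11.5%, 19.6% and 26.5%. At 5 weeks 19, 23 and 18 were higher and 36, 45 and 40 lower, which became 9, 15 and 13 higher and 6, 21 and 20 lower with the earlier controls. These calls were 59.8%, 73.9% and 63.0% of the 92 genes with the 5-week controls, against 53.7%, 63.3% and 61.5% of all clusters, and 16.3%, 39.1% and 35.9% with the earlier ones, against 15.3%, 26.1% and 31%. The medians of their log2 changes ran close to those of all clusters, the widest gap with same-week control being -0.23 for the 92 genes and -0.17 for all clusters at CSE 5% at 5 weeks.

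Among the 12 nuclear factors, 4 were higher and 3 lower at CSE 5% at 3 weeks, or 58.3%, against 19.6% of all clusters. At CSE 1% at 1 week 16.7% of them were called, against 5.31% of all clusters. TLE4, a co-repressor that binds TCF factors, rose at every concentration and week: by 0.55, 0.79 and 1.46 at 1 week, by 1.01, 1.55 and 1.80 at 3 weeks, and by 1.26, 1.82 and 2.22 at 5 weeks at CSE 1%, 5% and 10% (SE 0.098). The last 3 were 1.09, 1.65 and 2.05 with the earlier controls, so that its fitted change was graded by concentration with either set of controls. PYGO1, which links β-catenin complexes to histones, rose at CSE 5% and 10% by 0.60 and 0.90 in the first week, by 1.14 and 1.02 in the third, and by 1.82 and 1.45 after 5 weeks (1.37 and 1.00 with the earlier controls). At CSE 1% PYGO1 was also higher than same-week control at 3 weeks (0.61, adjusted p = 0.0099) and 5 weeks (1.01, adjusted p = 1.7e-05). TLE1, another co-repressor, was higher by 0.54, 0.95 and 0.66 at 1 week but at CSE 10% not later (0.25 and 0.07, adjusted p = 0.12 and 0.64, the second 0.01 with the earlier controls, adjusted p = 0.98).

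Of the 14 other receptors, none passed at CSE 1% or 5% at 1 week, where 5.31% and 10.8% of all clusters passed. At CSE 10% at 3 weeks 6 were higher and 1 lower, 50% of the list, against 26.5% of all clusters. FZD6 and FZD3, Frizzled receptors, rose by 1.72 and 1.54 at CSE 10% at 5 weeks, and by 0.66 and 0.55 with the earlier controls (adjusted p = 9.0e-04 and 0.041). FZD8 was lower at 5 weeks by 0.60, 0.87 and 1.01 at CSE 1%, 5% and 10% (log2 changes -0.60, -0.87 and -1.01), and against the earlier controls its changes were -0.28, -0.55 and -0.69, the first not past the test (adjusted p = 0.052). Receptors of one family thus moved in opposite directions.

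Of the 6 other genes of the R-spondin module, 2, 2 and 0 were higher and 4, 4 and 3 lower at CSE 1%, 5% and 10% at 5 weeks. These were 100%, 100% and 50% of the list, against 53.7%, 63.3% and 61.5% of all clusters. With the earlier controls 0%, 33.3% and 16.7% were called, against 15.3%, 26.1% and 31% of all clusters. LGR6, a second R-spondin receptor, was higher by 0.61 and 0.40 at CSE 1% and 5% at 1 week and by 0.95, 1.05 and 0.46 at CSE 1%, 5% and 10% at 3 weeks. At CSE 10% its change at 1 week was -0.18 (adjusted p = 0.33). At 5 weeks LGR6 was higher by 0.41 and 0.37 at CSE 1% and 5% (adjusted p = 0.0046 and 0.0077), with -0.16 at CSE 10% (adjusted p = 0.25). Relative to the earlier controls the rises were not past the test (0.26 and 0.21, adjusted p = 0.088 and 0.12), and LGR6 was lower at CSE 10% (-0.31, adjusted p = 0.019). NKD1, a feedback target that binds Dishevelled, had changes of 0.55, 0.41 and 0.03 in the first week, 0.73, 0.75 and 0.16 in the third, and 0.54, 0.63 and -0.18 after 5 weeks. All 6 of the changes of NKD1 at CSE 1% and 5% passed the test (highest adjusted p = 0.0078) and none at CSE 10% did (lowest adjusted p = 0.13). Relative to the earlier controls, the 5-week changes of NKD1 were 0.81, 0.90 and 0.09, the last again not past the test (adjusted p = 0.46).

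Of the 15 other inhibitors, none passed at CSE 1% at 1 week, where 5.31% of all clusters passed. WIF1, a secreted Wnt inhibitor with a dim signal (mean 4.87), was lower by 0.56, 0.50 and 0.41 at CSE 1%, 5% and 10% at 3 weeks (log2 changes -0.56, -0.50 and -0.41). At 5 weeks its changes were -0.88, -0.97 and -0.87, and -0.24, -0.33 and -0.23 against the earlier controls, of which the one at CSE 5% passed (adjusted p = 0.019). DKK3, of the family of DKK1, was higher at 3 weeks by 0.53, 0.72 and 0.43. At CSE 10%, DKK3 and DKK1 therefore had changes of opposite sign at 3 weeks and at 5 weeks (0.50 for DKK3, or 0.64 with the earlier controls).

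Of the 17 other cytoplasmic genes, 8, 8 and 8 were higher and 3, 6 and 6 lower at CSE 1%, 5% and 10% at 5 weeks. These were 64.7%, 82.4% and 82.4% of the list, against 53.7%, 63.3% and 61.5% of all clusters. With the earlier controls 2, 3 and 4 were higher and 0, 4 and 4 lower, or 11.8%, 41.2% and 47.1%, against 15.3%, 26.1% and 31%. APC, a scaffold of the destruction complex, was higher at CSE 10% at 3 weeks by 0.97 (SE 0.27, adjusted p = 0.0076). At 5 weeks it was higher by 0.97, 1.79 and 1.77 at CSE 1%, 5% and 10%. These changes, taken with the earlier controls, were -0.17, 0.65 and 0.63, the first not past the test (adjusted p = 0.71). DVL1 was lower at CSE 5% and 10% at 5 weeks (log2 changes -0.76 and -0.68). Its mean was 8.37 and 8.45 there, and 8.79, 8.78 and 9.13 in control cells of 1, 3 and 5 weeks. GSK3A was lower at CSE 10% at 3 weeks (log2 change -0.43, adjusted p = 0.0016). Of the 19 other ligands and their secretion genes, none was higher at 5 weeks and 12, 12 and 10 were lower. These are 63.2%, 63.2% and 52.6% of the list, near the 53.7%, 63.3% and 61.5% of all clusters called in either direction. With the earlier controls 0, 0 and 1 were higher and 2, 3 and 2 lower, or 10.5%, 15.8% and 15.8% of the list, against 15.3%, 26.1% and 31% of all clusters. WNT4 was lower in every comparison at 1 week, by 0.41, 0.44 and 0.44 (log2 changes -0.41, -0.44 and -0.44). Of the 9 other target genes, CCND1, the cell-cycle gene of cyclin D1, was higher at 1 week by 0.37, 0.54 and 0.43, and CD44, an adhesion receptor, was lower in that week by 0.46 and 0.87 at CSE 5% and 10% (log2 changes -0.46 and -0.87).

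**Figure D4:**
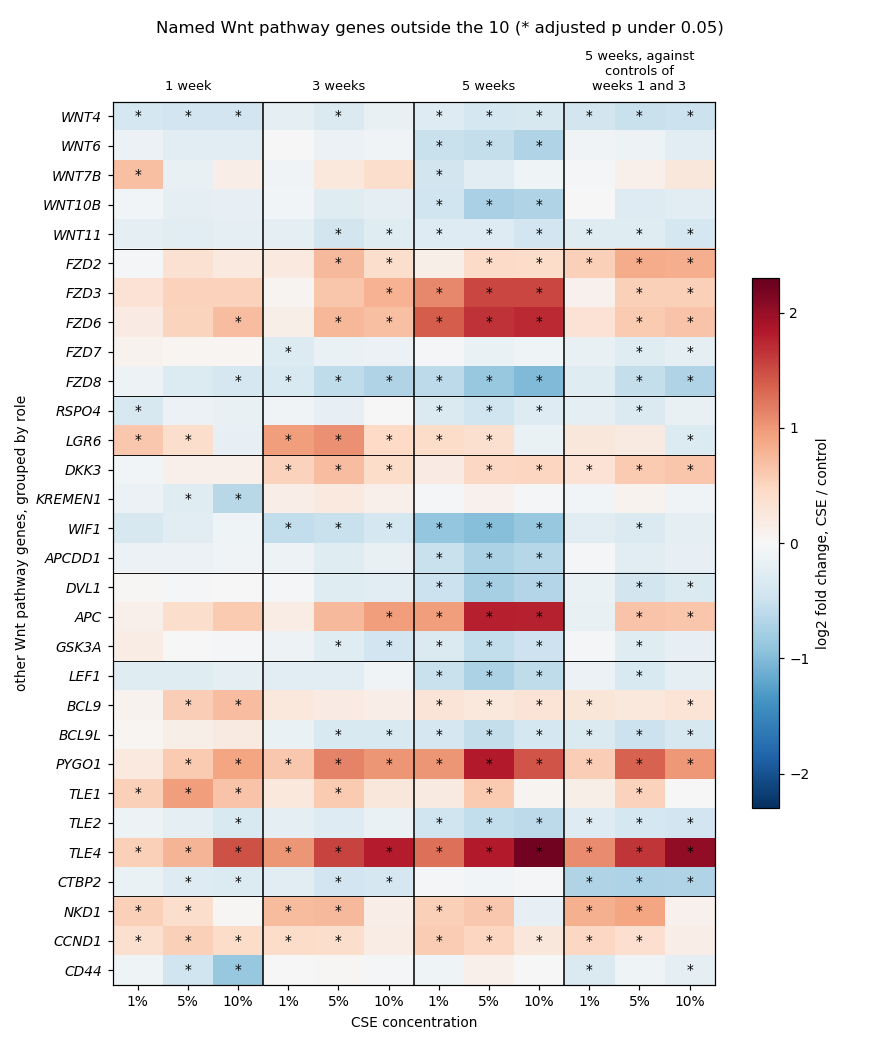
Log2 fold change, CSE over control (colour, red higher and blue lower), of 30 other Wnt pathway genes, in rows grouped by role, for CSE 1%, 5% and 10% at 1, 3 and 5 weeks and at 5 weeks against the controls of weeks 1 and 3. A star marks an adjusted p under 0.05. TLE4 is red in all 12 columns, up to 2.22, and the blue 5-week columns of WNT6, WNT10B and APCDD1 are pale in the last 3.

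For 6 of the 10 genes the group means spanned at least 1 log2 unit, and for each the 3 genes of most similar pattern were found by Pearson's r over the 12 group means, among 4273 genes of such a span. ROR1 was most like NRCAM (r = 0.983), PRTG (0.975) and MGAT4A (0.975). LRP6 was most like WDFY3, KLF12 and FRK (0.984, 0.983 and 0.982), LGR4 like PDCD4, ZNHIT6 and LPGAT1 (0.988, 0.985 and 0.980), and RSPO3 like LRRC40, MTERF3 and TRNT1 (0.983, 0.978 and 0.974). RNF43 was most like SLC9A2, MTMR11 and SCN9A (0.963, 0.954 and 0.950), and DKK1 like IGFBP7, RFC2 and UNG (0.914, 0.880 and 0.866). The correlations describe 12 points that share arrays and normalization. Among the 10 genes themselves, LRP6 and LGR4 (r = 0.892) and LGR4 and RSPO3 (r = 0.879) were the closest pairs over the 12 group means, and without the 5-week controls the same pairs had r = 0.826 and 0.540.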

How the data were processed

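Cells were exposed in 12 groups of 3 arrays. The authors corrected the probe signals of the Human Gene 1.0 ST arrays for background, normalized them with RMA (Bioconductor package oligo) and deposited log2 values for 33297 transcript clusters. The submitters' notes name R 2.11.0, RMA and limma, and no genome build is stated in the sources consulted. RMA makes arrays alike in distribution, which can remove a change shared by most genes. Clusters were named from the platform annotation: 19460 had 1 symbol, 1754 had several (not named) and 12083 had none.

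The deposited log2 values were fitted without a filter with limma 3.58.1 in R 4.3.3, as 1 mean for each of the 12 groups over 36 arrays (24 residual degrees of freedom, prior 3.91, prior proportion of changed clusters 0.01). Contrasts were each concentration against the control of its week or, at 5 weeks, against the controls of weeks 1 and 3, concentrations against each other, control weeks against each other, and the CSE 5% effect between weeks. Calls used p-values adjusted by Benjamini-Hochberg across all clusters, with a threshold of 0.05. The 10 genes and the pathway lists were chosen with earlier results of these data known. Of the other pathway genes, the up to 5 with the largest change in each direction among those called in a comparison with same-week control were the candidates for naming. The fit was checked on simulated data. No 2 arrays were copies (highest correlation 0.996). P-values measure the spread between arrays described as independent experiments. Alternatives changed 1 setting at a time: the threshold, the arrays in the fit, a replicate block, the normalization, a filter on low values, array weights, the variance model, the control arrays, and each array left out.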

Additional observations from a re-analysis of the deposited data

Results flagged for a closer look

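For 6 genes the CSE 5% effect (CSE 5% minus control of the same week, log2) differed between weeks by the test of the difference itself. Against 1 week, the 3-week effect was larger in ROR1 by 0.52 (1.94 and 1.42 at 3 weeks and 1 week) and in RNF43 by 0.47 (0.88 and 0.41), where 3.23% of all clusters differed. Against 1 week, the 5-week effect was larger in ROR1 by 0.94 (2.36 and 1.42), in LRP6 by 0.84 (1.39 and 0.55), in LGR4 by 0.79 (1.01 and 0.22), in RNF43 by 0.41 (0.83 and 0.41), in RSPO3 by 1.63 (1.54 and -0.09) and in DKK1 by 0.55 (0.37 and -0.18), where 30.7% of all clusters differed. With the controls of weeks 1 and 3 in place of those of 5 weeks, these 6 differences were 0.78 in ROR1, 0.11 in LRP6, -0.10 in LGR4, 0.09 in RNF43, 0.40 in RSPO3 and 0.86 in DKK1, and those of ROR1 and DKK1 passed the test (adjusted p = 9.8e-06 and 2.4e-05), while those of LRP6, LGR4, RNF43 and RSPO3 did not (adjusted p = 0.71, 0.75, 0.61 and 0.11).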

How the results depend on the processing

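Of the 10 genes, the number called was 0, 1 and 1 for CSE 1%, 5% and 10% at 1 week, 0, 1 and 1 at 3 weeks and 4 for CSE 10% at 5 weeks when a log2 change beyond 1 and B above 0 were required. Under that threshold it was 0 and 1 for the CSE 5% effect at 3 and 5 weeks against 1 week, 1 for CSE 5% against 1% in each week, 0, 0 and 1 for CSE 10% against 5%, 0 and 1 for control cells of 3 against 1 and 5 against 3 weeks, and 0, 1 and 1 at 5 weeks against the controls of weeks 1 and 3. With each week fitted alone, 1 gene was called for CSE 5% against 1% and 1 for CSE 10% against 5% at 5 weeks. With each comparison fitted alone, 0 were called for CSE 1% and 2 for CSE 5% at 1 week, 1 for the 3-week difference in effect, 1 for CSE 5% against 1% at 3 weeks and at 5 weeks, 1 for CSE 10% against 5% at 5 weeks, and 0 and 3 between control weeks. Centred on 21 housekeeping genes, which shifted by -0.12 to -0.19 at 3 weeks against control, 7 were called for CSE 5% at 3 weeks and 5 for CSE 1% at 5 weeks against the earlier controls. With array weights, 2 were called for CSE 10% against 5% at 3 weeks. With all 9 control arrays as 1 group, or with those of weeks 1 and 3, 3 were called for CSE 1% at 5 weeks and 3 for the 5-week difference in effect. With the controls of weeks 1 and 3 the latter were ROR1, DKK1 and TCF7L2, the last at -0.26 with adjusted p = 0.041. With all 9 as 1 group the control cancels from that difference, which leaves CSE 5% at 5 weeks against CSE 5% at 1 week.

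Leaving out 1 array moved the number called to 0 to 3 for CSE 1%, 3 to 4 for CSE 5% and 2 to 3 for CSE 10% at 1 week, to 4 to 5, 4 and 4 to 6 at 3 weeks, and to 6 to 7, 5 to 7 and 7 at 5 weeks. The range was 2 to 5, 5 and 4 to 5 at 5 weeks against the earlier controls (5 without Ctrl 1 week replicate 1), 0 to 2 and 5 to 7 for the 3- and 5-week differences in effect, 2 to 3, 1 to 2 and 1 to 3 for CSE 5% against 1%, 2, 1 and 1 to 2 for CSE 10% against 5%, and 1 and 4 to 6 between control weeks. For CSE 1% at 1 week the number was 0 without Ctrl 1 week replicate 3 and 1 without CSE 1% 1 week replicate 1 or 3.

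Among values called in at least 1 of the settings compared, the sign turned for RSPO3 at CSE 1% at 5 weeks (-0.17 against the controls of weeks 1 and 3). It also turned for the 5-week difference in effect of LGR4 (-0.10 with those controls). With all 9 control arrays as 1 group that value was -0.063, which is CSE 5% at 5 weeks minus CSE 5% at 1 week, since the shared control cancels. The cause of these changes was not tested. No clear pairing by the numbers in the titles was seen: 6 of 27 same-numbered pairs correlated above 0.1 (range -0.21 to 0.50) and 10 correlated best with their own number. With 3 arrays per group, these correlations cannot show that the samples were unpaired. With the replicate block, fixed or random, 219 of 220 calls were the same, the exception being TCF7L2 in control cells of 5 against 3 weeks (-0.18, adjusted p = 0.059 and 0.051). Reading a gene's clusters as their mean changed nothing, since each had 1.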
